A study of Homo sapiens with 3 samples.

Results

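The 55 genes described here encode core proteins of the human spliceosome and were chosen from 20033 protein-coding genes and 62663 annotated genes on chromosomes 1 to 22, X and Y. They comprise 4 AQR-associated genes, 9 genes of the tri-snRNP, 13 of the U2 snRNP and its recruiting factors, 3 of the U1 snRNP, 7 Sm genes, 7 LSm genes, 6 genes of the PRPF19 complex and its neighbours, and 6 helicases and step factors. For each gene, the ZBTB11 peak with the smallest p-value within 3 kb of any annotated transcription start site (TSS) was taken and is called its strongest peak. Because the p-value picked the peak, the peak values below are a description of the genes and carry no test. The study asked whether ZBTB11, a zinc finger protein of the BTB family, occupies chromatin in lung cancer cells. Untreated NCI-H1299 cells, an established lung cancer line that lacks p53, labelled as lung adenocarcinoma and as wild type for genotype, were fixed with formaldehyde, and chromatin was immunoprecipitated in 1 library with an antibody to ZBTB11 (Bethyl, A303-240A) and in 1 library with normal IgG as a control for unspecific recovery. The labels give the IgG as CST, 2729S, whereas the study's methods name a rabbit IgG of another supplier (Invitrogen) for ChIP-seq, so its source is not certain. An Input library of the same cells, made without antibody, was not analysed here. With 1 library per antibody there was no replicate error, and expression of the genes was not measured in this series.

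The spliceosome removes introns from pre-mRNA. The U1 snRNP marks the 5′ splice site, the U2 snRNP binds the branch point, and the tri-snRNP of U4, U6 and U5 then joins and rearranges to form the catalytic centre, which PRPF19-complex and AQR-associated proteins help to build and stabilize. Sm proteins form a ring on most spliceosomal RNAs and LSm proteins form a ring on U6, while RNA helicases drive the steps from activation to disassembly, so the genes are housekeeping genes that dividing cells depend on.

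The ZBTB11 list held 346891 peaks on the 24 main chromosomes, while the IgG list covered chromosomes 1, 10, 21 and Y only, with 26712 peaks. Most peaks were low, with a median of 5 ZBTB11 or 6 IgG fragments at the summit over a genome-wide background of 1.35 and 1.55 fragments. A fragment here is a sequenced piece of DNA that covers the summit, counted back from the deposited fold enrichment and p-value. Intervals on fragments are exact Poisson 95% intervals, which cover counting error only. A peak was called strong at a p-value of 1e-05 or less, and its rank is its place among all main-chromosome ZBTB11 peaks by p-value.

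The sequences at the centre of the results are short sites with the letters CCGGAAG or CAGGAAG, the motif that the study derived from these same ZBTB11 peaks. Both words hold the GGAA core known from sites of ETS-family transcription factors. Shown are 29 bases of hg38, 5′ to 3′ on the strand that carries the motif, with the motif in capitals. The first 8 are the sites nearest to the summits of strong peaks at genes of different spliceosomal complexes, printed as examples. Likeness within the motif was fixed by the search, and the bases around it were not compared.
AQR, chr15:34969808-34969836, plus strand: atggcgtgtagCCGGAAGttcatgcaggc
PPIE, chr1:39738863-39738891, minus strand: gcgcttttccgCCGGAAGccagcactcga
SF3B6, chr2:24076437-24076465, plus strand: gagactcgaggCCGGAAGatggaaaggcg
SF3A3, chr1:37990073-37990101, plus strand: ttccgcgagtgCCGGAAGtgccccgggac
SNRPB, chr20:2470813-2470841, minus strand: agtgagctggaCCGGAAGtaggtttctac
LSM5, chr7:32490362-32490390, plus strand: ccatggctacgCCGGAAGtggcctgcctt
SNRNP200, chr2:96305566-96305594, minus strand: tggggcgcgacCCGGAAGcggaagggaac
PRPF4, chr9:113275632-113275660, minus strand: tgcgtcactgaCAGGAAGtgcgtcactga

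The next 4 are sites in the promoters of genes whose strongest peaks were among the weakest of the set, shown because the same letters stood beside low values. Here a promoter is the stretch from 250 bases before to 50 bases after the canonical start.
XAB2, chr19:7629669-7629697, plus strand: gacgccagcgaCCGGAAGcagaatagagg
LSM8, chr7:118183964-118183992, minus strand: tgggccgtgttCCGGAAGcctcgtaagac
SNRPC, chr6:34757283-34757311, plus strand: aatacgctcttCCGGAAGcaccgacaaac
CDC5L, chr6:44387590-44387618, minus strand: aagctcagctgCAGGAAGactaacacaaa

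Nearly every core spliceosome gene had a ZBTB11 peak at its start, and the peaks ranged from among the strongest of the genome to barely above background. Of the 55 genes, 54 had a peak within 3 kb of a TSS, against 87.7% of protein-coding genes, so having a listed peak said little. A strong peak was found at 48 of the 55 (87.3%), against 46.9% of protein-coding genes. At 52 the strongest peak had a q-value of 0.05 or less (94.5%), against 55.3%. A peak among the 1000 with the smallest p-values lay at 14 genes (25.5%), against 6.01%. The median −log10 p was 28.2 with quartiles of 9.43 and 108, and 4.54 over all protein-coding genes with genes without a peak taken as 0. The median summit had 48 fragments, 8.83-fold over the local background, against 11 fragments and 3.85-fold at protein-coding genes with a peak.

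**Figure D1:**
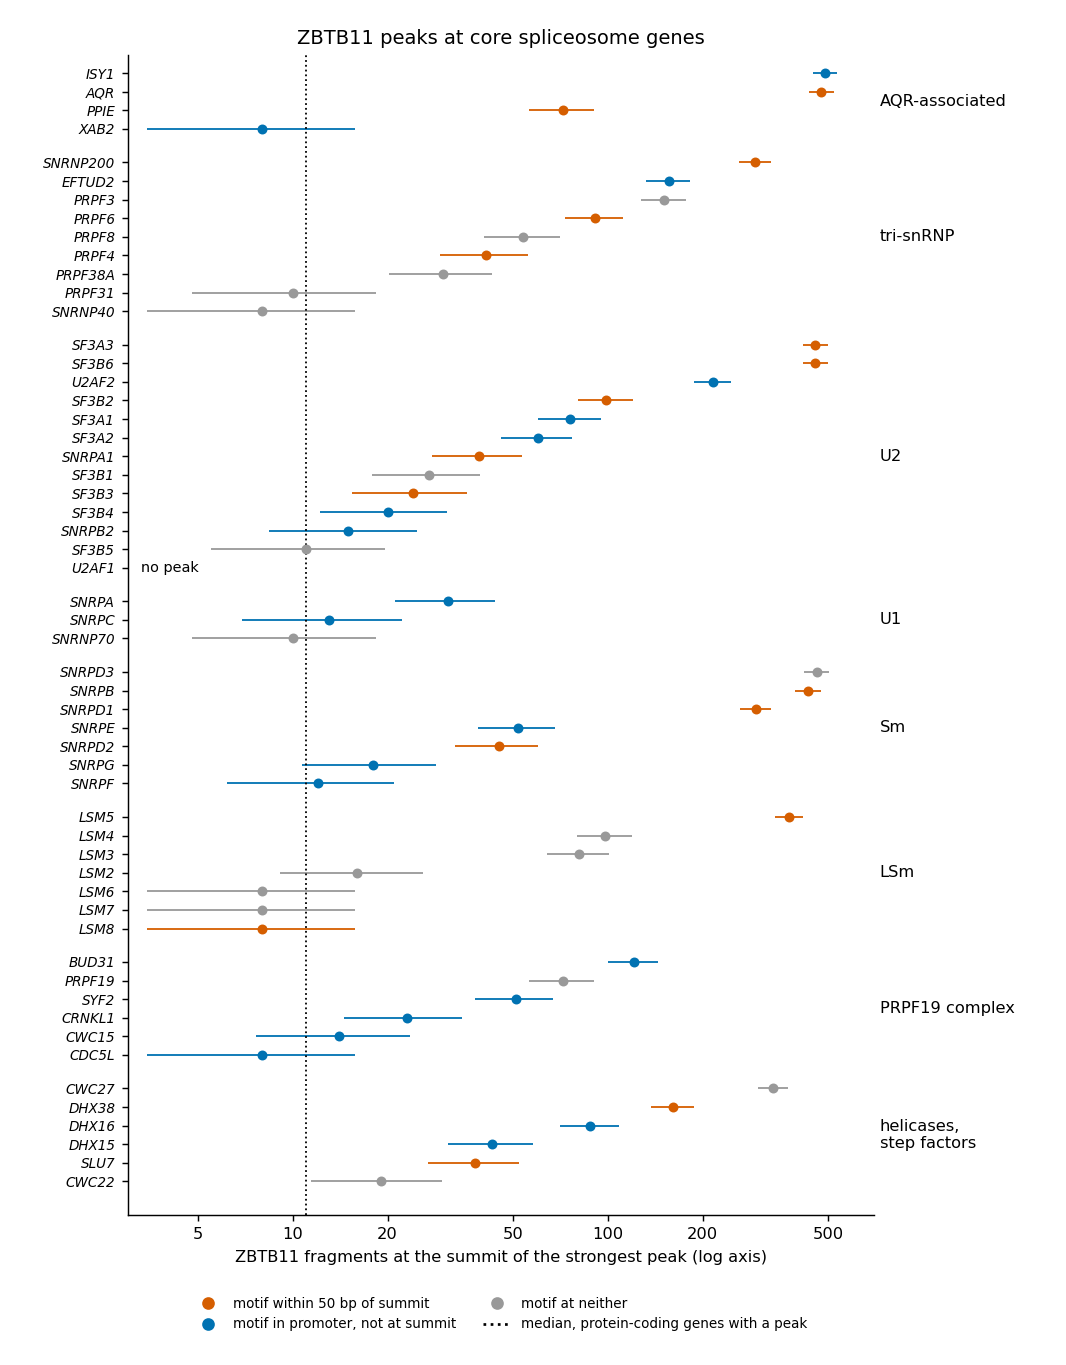
ZBTB11 fragments at the summit of the strongest peak (log axis) for each core spliceosome gene, with exact Poisson 95% intervals, grouped by complex. Colours give the place of the motif, and the dotted line is the median of protein-coding genes with a peak (11 fragments). Within the AQR-associated, U2 and Sm groups, genes stretched from near the line to 490, 456 and 461 fragments.

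**Figure D2:**
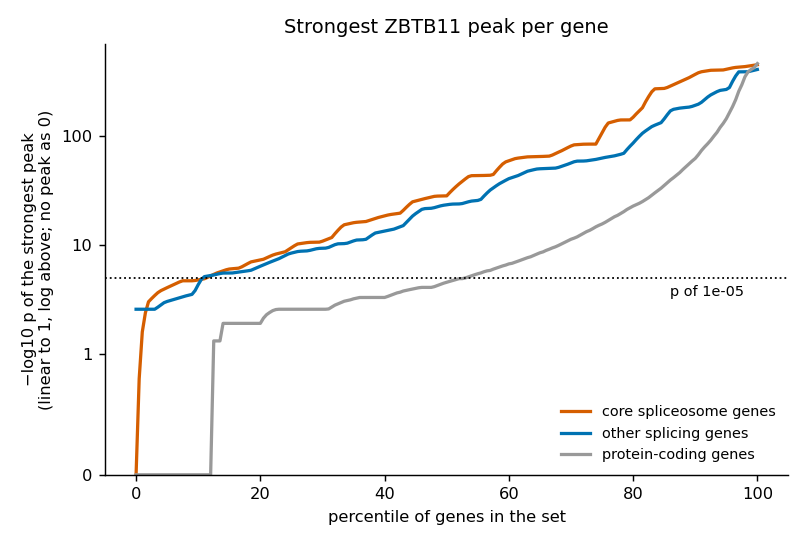
The −log10 p of the strongest ZBTB11 peak (linear to 1 and log above, with no peak as 0) by percentile of genes in each set. The curves of the 55 core and the 66 other splicing genes lie above that of protein-coding genes over most of the range, and all 3 meet near the top.

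Among the AQR-associated genes, 2 of 4 carried very strong peaks. AQR, the helicase that binds introns ahead of the branch point, had 476 fragments (434 to 521) and a −log10 p of 452, which placed it at rank 4. Its peak at chr15:34969320-34970173 covered the AQR start, its summit lay 41 bp from it, and no other gene started within 3 kb. ISY1, a factor that acts around the first catalytic step, had the most fragments of the set, 490 (448 to 535). The local background there was also the highest of the set, 31.6 fragments against 20.9 at AQR, which gave 15.0-fold and 21.8-fold enrichment. This background tended to be higher at higher peaks, with 1.44 at LSM8 (8 fragments), 3.74 at PPIE (72) and 13.8 at SNRNP200 (293). Each antibody was called by itself, so the background came from the same library and fold was not a separate measure of enrichment. The ISY1 peak also covered the start of ISY1-RAB43, a read-through gene that begins with ISY1. Its summit lay 106 bp from the start of ENSG00000288996 and 229 bp from that of ISY1. PPIE, a cyclophilin, stood lower with 72 fragments (56.3 to 90.7). XAB2, a scaffold protein of the same complex, had 8 fragments (3.45 to 15.8), a −log10 p of 4.19 and a summit 367 bp inside the gene, in an intron. The peak at XAB2 also covered the start of PET100. The intervals of AQR and ISY1 overlapped each other, and neither reached those of PPIE or XAB2.

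The tri-snRNP genes spread evenly over the range, and 8 of 9 had a strong peak. SNRNP200, the helicase that unwinds U4 from U6, led with 293 fragments (260 to 329) and rank 440. EFTUD2, the GTPase of U5, followed with 156 fragments, but its summit lay 38 bp from the start of CCDC103 and 55 bp from the nearest EFTUD2 start. PRPF3, a U4/U6 protein, had 151 fragments at a summit 21 bp from its own start. These 3 were the only tri-snRNP genes within the 1000 strongest peaks. PRPF6, which bridges U5 to U4/U6, had 91 fragments and a further strong peak with a −log10 p of 42.6. PRPF8, the scaffold of the catalytic centre, had 54, PRPF4 had 41 and PRPF38A, a protein of the complex before activation, had 30 fragments. PRPF31, which holds U4 in the tri-snRNP, had 10 fragments and a −log10 p of 5.99. SNRNP40, a U5 protein, had 8 fragments at a summit 412 bp from an alternative start and 27534 bp from its canonical one. No stronger peak was listed at the canonical SNRNP40 start.

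Of the 13 U2 genes, 12 had a strong peak and U2AF1 had none within 3 kb. SF3B6, which sits beside the branch point, and SF3A3, a subunit of the SF3A complex, both had 456 fragments (415 to 500), with ranks 46 and 75. The SF3B6 peak also covered the start of FAM228B on the other strand, whereas no other protein-coding gene started within 3 kb of the SF3A3 peak. U2AF2, the subunit that reads the polypyrimidine tract, had 215 fragments, and its summit lay 729 bp before the canonical start near an upstream start. SF3B2 had 99, SF3A1 had 76 and SF3A2 had 60 fragments. SNRPA1 with 39, SF3B1 with 27, SF3B3 with 24, SF3B4 with 20 and SNRPB2 with 15 fragments formed a continuous lower range. SF3B1 and SF3B3 are the large scaffold subunits of the SF3B complex, and both had fewer fragments than the small subunit SF3B6, with intervals apart. SF3B5 came last with 11 fragments (5.49 to 19.7) and a −log10 p of 5.51. The 31 bases at the SF3B5 summit, 442 bp before the gene, occurred 1916 times on the main chromosomes, whereas those of the other 53 genes with a peak occurred 1 time. On alternate haplotypes of the reference, further copies were present for PRPF31 (9), DHX16 (7), LSM2 (5) and PRPF8 (1). Whether these copies affected the fragments counted at those genes was not tested.

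The U1 genes had the lowest range of any group, although all 3 peaks were strong. SNRPA had 31 fragments and a −log10 p of 11.7. SNRPC had 13 fragments and a −log10 p of 6.99. SNRNP70, the U1 protein that contacts SR proteins, had 10 fragments (4.80 to 18.4) and a −log10 p of 6.13. The intervals of SNRPC and SNRNP70 overlapped each other.

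The Sm genes had high peaks at SNRPD3, SNRPB and SNRPD1, and the LSm genes at LSM5. SNRPD3 had 461 fragments (420 to 505), but its summit lay 30 bp from the start of GUCD1 on the other strand and 129 bp from its own. SNRPB, 432 fragments (392 to 475), and SNRPD1, 295 fragments (262 to 331), had summits 15 and 17 bp from their own starts, with no other gene within 3 kb. SNRPE had 52, SNRPD2 had 45, SNRPG had 18 and SNRPF had 12 fragments. All 7 Sm peaks were strong, and the genes for proteins of the same ring ran over the whole range of heights. LSM5 had 376 fragments (339 to 416) with a summit 8 bp from its start. LSM4 had 98, LSM3 had 81 and LSM2 had 16 fragments. LSM6, LSM7 and LSM8 had 8 fragments each (3.45 to 15.8), with −log10 p of 4.90, 3.73 and 4.68, and none was strong. The interval of LSM5 was apart from that of every other LSm gene.

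In the PRPF19 group no peak was among the 1000 strongest. BUD31 had 121 fragments (100.4 to 145), PRPF19 itself, a ubiquitin ligase, had 72, SYF2 had 51, CRNKL1 had 23 and CWC15 had 14. CDC5L, a core partner of PRPF19, had 8 fragments over a local background of 2.50 and the smallest −log10 p of the set, 2.94. Its summit lay 521 bp before its start, and the peak did not cover it. CDC5L and LSM7 were the members with a peak whose q-value was above 0.05.

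All 6 helicases and step factors had strong peaks. CWC27, of the cyclophilin family, led with 335 fragments (300.1 to 373), with a summit 2 bp from the start of SREK1IP1 and 229 bp from its own. DHX38, the helicase of the second step, had 161, and its summit was nearer to the TXNL4B start. DHX16, the helicase before the first step, had 88 fragments. DHX15, which takes spliceosomes apart, had 43 fragments at a summit 1851 bp inside the gene, in an intron and away from any annotated start. SLU7, a factor for the 3′ splice site, had 38 and CWC22, which links splicing to the exon junction complex, had 19 fragments (11.4 to 29.7), the lowest of this group.

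Group medians ranked the AQR-associated genes highest, with a −log10 p of 226, followed by tri-snRNP (43.3), Sm and LSm together (31.4) and U2 (26.5, with U2AF1 as 0). The order was the same for fragments, with medians of 274, 54, 48.5 and 39, again with U2AF1 as 0. Over the 12 U2 genes with a peak the median was 49.5 fragments, above that of Sm and LSm. By −log10 p, the middle of these 12 genes lay between SNRPA1 at 26.5 and SF3A2 at 43.7, with a midpoint above 31.4. The last place of U2 by either measure thus depended on U2AF1, whose missing peak is described below. The spread within groups was far larger than the steps between medians. The AQR-associated median stood between ISY1 at 387 and PPIE at 65.4 and fell to 49.0 when the 6 PRPF19-group genes were joined to it. Taken apart, the Sm median was 43.2 and the LSm median 8.67, while helicases and step factors had 46.2, the PRPF19 group 26.1 and U1 6.99. In the whole order by fragments, SNRNP200 (293) and U2AF2 (215) were the only neighbours whose intervals did not overlap. At the threshold for a strong peak, SF3B5 (5.51), PRPF31 (5.99) and SNRNP70 (6.13) stood just inside by −log10 p, and LSM6 (4.90), LSM8 (4.68) and SNRNP40 (4.68) just outside.

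Summits sat close to starts. The median distance to the nearest TSS of any gene was 34 bp, against 176 bp over protein-coding genes with a peak, and the median to a start of the gene itself was 48.5 bp. Strong peaks had a median of 29 bp, against 70 bp over protein-coding genes with a strong peak. The peak covered a start of the gene itself in 51 of 54 cases (94.4%), the exceptions being CDC5L, SNRNP40 and DHX15, against 56% of protein-coding genes with a peak. At strong peaks these shares were 97.9% and 81.5%. Summits fell in a UTR of the gene in 18 cases, outside it in 18, in an intron in 9, in a coding exon in 6 and in a noncoding exon in 3. By side, 29 summits lay upstream and 25 downstream of the nearest own start.

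**Figure D3:**
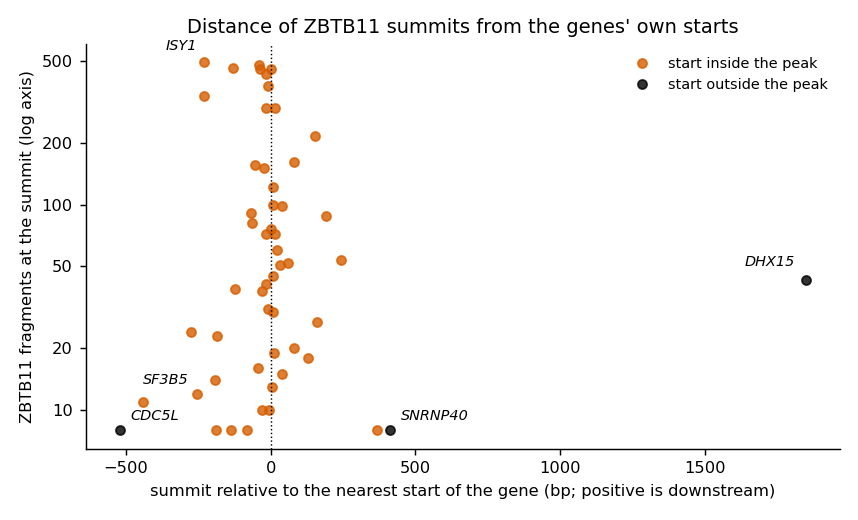
Distance in bp from the summit of the strongest ZBTB11 peak to the nearest start of the gene (positive is downstream) against ZBTB11 fragments (log axis), 1 point per gene with a peak. Points of strong peaks crowd at the start (median 40.5 bp), while the 6 peaks that were not strong have a median of 278 bp. Black points mark the 3 genes whose peak did not cover a start, DHX15 at 1851 bp, CDC5L at 521 bp upstream and SNRNP40 at 412 bp.

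Many of these starts are shared. In 20 of 54 cases (37%) the peak also covered a start of another protein-coding gene, against 18.1% of protein-coding genes with a peak, and in 19 of the 20 such a gene ran on the opposite strand. The shares covering such a start were 37.5% and 28.8% at strong peaks, and 42.9% and 44.6% at peaks among the 1000 strongest. The summit was nearer to a start of another gene for 12 members, which included ISY1 with ENSG00000288996, SNRPD3 with GUCD1, CWC27 with SREK1IP1, EFTUD2 with CCDC103, DHX38 with TXNL4B, SF3B3 with COG4 and LSM7 with SPPL2B. At such pairs the peak list cannot assign the peak to either gene. Without peaks within 3 kb of a start of any other gene, 20 genes still had a strong peak of their own, among them AQR, SNRPB, LSM5, SNRPD1, SNRNP200 and PRPF3. Without peaks near another protein-coding gene, 27 did, SF3A3 included. The matching shares of protein-coding genes were not counted, so these counts have no background beside them. Further strong peaks within 3 kb were listed at PRPF6, LSM5, U2AF2, SNRNP200 and SNRPD2, with −log10 p from 5.67 to 42.6.

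The motif was searched on both strands in the 101 bases centred on each summit. It was present at 17 of 54 genes (31.5%), against 15.8% of protein-coding genes with a peak. In equal windows 500 bp to either side it was present in 7 of 108 (6.48%), against 4.11%. Beside the 1000 strongest peaks these flanking windows held it in 5 of 28 (17.9%), against 4.78%. At strong peaks it was present at 16 of 48 (33.3%), against 25.2%, and at peaks among the 1000 strongest at 8 of 14 (57.1%), against 44.9%. Since the study derived the motif from these peaks, its presence at strong summits is not independent evidence. The 17 genes were 5 of U2, 3 of the tri-snRNP, 3 Sm, 2 LSm, 2 AQR-associated and 2 of the helicases and step factors, with none of U1 or the PRPF19 group. CCGGAAG was present at 15 of them, and PRPF4 and SNRPD2 had CAGGAAG alone. SF3B2 had 3 sites, PRPF6 and SLU7 had 2 each. The median distance from summit to the nearest site was 23 bp. AQR had its site 39 bp from the summit, SNRPD1 had it 2 bp away, and LSM8 had one at a summit of only 8 fragments.

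The strongest peaks without these letters at the summit were those of SNRPD3, ISY1, CWC27, U2AF2, PRPF3 and EFTUD2. ISY1 had 2 and U2AF2 had 1 site in the promoter but outside the summit window, EFTUD2 had CAGGAAG there, and SNRPD3, CWC27 and PRPF3 had none. The U2AF2 promoter site lay outside its peak. Over the whole peak, ISY1 had 6 sites, U2AF2 had 2, SNRPD3 and EFTUD2 had 1 each, and CWC27 and PRPF3 had none. The GGAA core alone, which is frequent in any sequence, was present at 44 of 54 summits, a share not compared with that of protein-coding genes. The median GC content of the windows was 60.4%, against 63.4% over protein-coding genes with a peak, and at the 1000 strongest peaks 59.9% against 66.3%. The windows held a median of 8.5 CpG, against 7.

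Promoters, which were read without regard to peaks, held the motif at 36 of 55 genes (65.5%), against 24.7% of protein-coding genes. CCGGAAG was present in 29 (52.7%), against 14.1%. The other 66 splicing genes had the motif in 31 (47%). Among core spliceosome genes the share was 78.6% where the strongest peak was among the first 1000, 70% at ranks 1001 to 5000 and 52.4% beyond or without a peak. The same steps over protein-coding genes were 55.1%, 41.6% and 18.4%. The last step held strong peaks at 14 of 21 core spliceosome genes and 4621 of 15261 protein-coding genes, so it was not matched for peak strength. The motif was in the promoters of all 4 AQR-associated genes, 6 of 7 Sm genes, 5 of 6 of the PRPF19 group, 9 of 13 U2 genes, 4 of 6 helicases and step factors, 2 of 3 U1 genes, 4 of 9 tri-snRNP genes and 2 of 7 LSm genes. XAB2, with 8 fragments, thus had the same 7 letters as AQR, with 476. SYF2, SF3B6, SF3A3 and SF3B2 had 3 sites each. LSM8, XAB2 and CDC5L were the genes with a site and no strong peak, whereas LSM4, LSM3, PRPF19, PRPF8 and PRPF38A, like SNRPD3, CWC27 and PRPF3, had strong peaks of at least 30 fragments with no site in the promoter or at the summit. Of these, LSM3, PRPF19 and SNRPD3 had 1 site elsewhere in the peak. In RefSeq promoters of the same length, which were listed for 50 of the 55 genes and not for PPIE, PRPF3, SF3B3, SNRPD1 and LSM6, the motif was present in 34 (68%), against 30% of 15843 protein-coding genes. A match of letters is a description of the sequence and does not show a binding site.

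**Figure D4:**
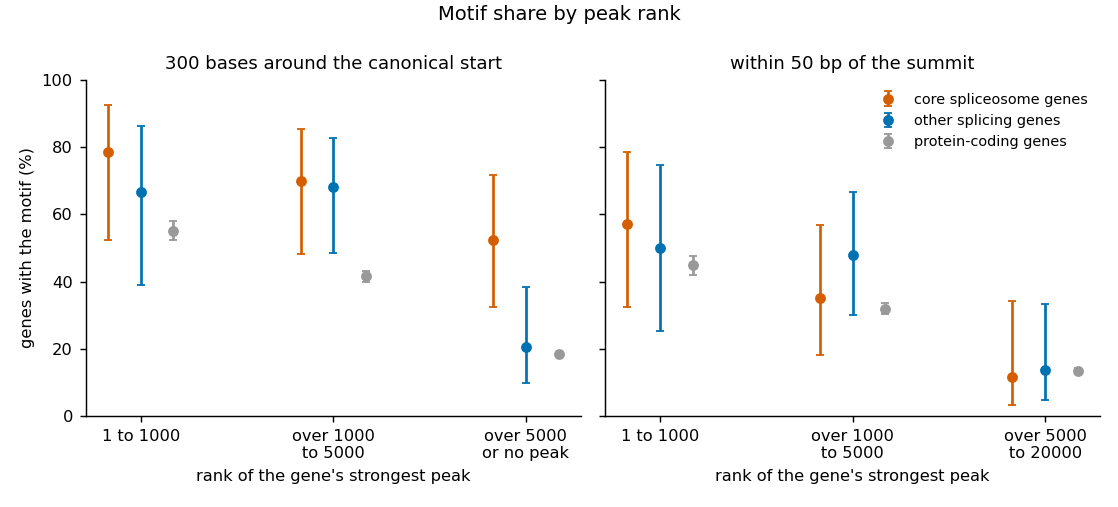
Share of genes (%) with the motif in the 300 bases around the canonical start (left) and in the 101 bases around the summit (right), by rank of the strongest ZBTB11 peak, with Wilson 95% intervals that describe the number of genes only. Shares fall with rank for core spliceosome genes and protein-coding genes. Beyond rank 5000 or without a peak, the promoter share is 52.4% for core spliceosome genes and 18.4% for protein-coding genes. That step is not matched for peak strength between the sets. At the summit, the shares for ranks 5001 to 20000, which leave out weaker peaks, are 11.8% and 13.5%.

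The IgG control could be set beside 9 genes, 8 on chromosome 1 and U2AF1 on chromosome 21, as none of the 55 lies on chromosome 10. An IgG peak was listed within 3 kb of a TSS at 7 of them (77.8%), against 68.7% of protein-coding genes on these chromosomes, which is near that background. The IgG summits had 6 to 10 fragments, and none was strong, against 1.99% of protein-coding genes on these chromosomes. Since each list was searched around every start of a gene, the IgG peak need not lie at the ZBTB11 peak. At PRPF3, PRPF38A, SNRPE and SNRNP40 no IgG peak overlapped the strongest ZBTB11 peak, so their ratios below set different sites side by side. PRPF38A, with 10, was the only gene whose IgG peak had a q-value of 0.05 or less (11.1%), against 3.02% of protein-coding genes there. That peak lay 2963 bp from the PRPF38A start. SF3A3 had 456 ZBTB11 fragments and an IgG peak with 8 near another of its starts, a ratio of 65.3 (32.5 to 131) after scaling by the background of both libraries. The IgG peak that overlapped the ZBTB11 peak of SF3A3 had 7 fragments. PRPF3 with 151 and 6 fragments had a ratio of 28.8 (12.7 to 65.2), and PPIE with 72 and 7 had 11.8 (5.42 to 25.6). SNRPE had 52 and 7 fragments, with a ratio of 8.51, and PRPF38A had 30 and 10, with 3.44 (1.68 to 7.03). At these 5 genes the intervals of the 2 libraries were apart. At SF3B4, with 20 and 8 fragments in overlapping peaks, they overlapped, although the ratio was 2.86 (1.26 to 6.50). At SNRNP40, with 8 fragments in each library at peaks near different starts, the ratio was 1.15 (0.430 to 3.05). SYF2 had 51 ZBTB11 fragments and no IgG peak within 3 kb. The median ratio was 10.1 over the 6 genes with a strong ZBTB11 peak and an IgG peak, against 4.09 over 1147 such protein-coding genes. For the 46 genes on other chromosomes no IgG value was analysed here.

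**Figure D5:**
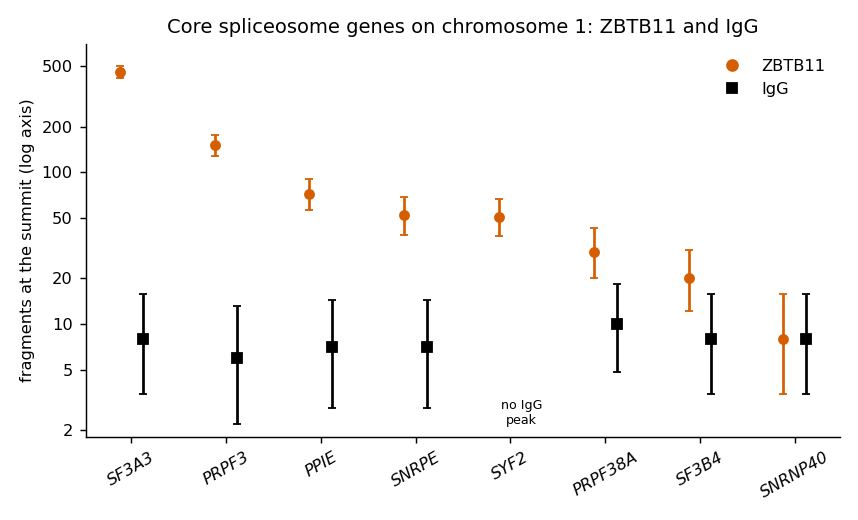
Fragments at the summit (log axis) of the strongest ZBTB11 (circles) and IgG (squares) peak within 3 kb of a start for the 8 core spliceosome genes on chromosome 1, with exact Poisson 95% intervals. Both peaks overlap at PPIE and SF3B4, and elsewhere they lie at different sites. IgG values stay between 6 and 10 while ZBTB11 values run from 8 to 456, and the intervals overlap at SF3B4 and SNRNP40.

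U2AF1, which reads the AG at the 3′ splice site, was the only core spliceosome gene without a peak. The nearest ZBTB11 peak lay 19540 bp and the nearest IgG peak 5275 bp from its starts. The reference holds a near-copy of this region on the same chromosome. Of 121 stretches of 31 bases around the canonical U2AF1 start, taken every 50 bp, 97.5% occurred more than 1 time on chromosome 21, against a median of 4.13% for 219 other protein-coding genes there, of which 6 reached the same share. The near-copy, annotated as ENSG00000275895 with the type artifact at chr21:6484623-6499248 on the minus strand, had a ZBTB11 peak over its start at chr21:6498495-6499320 with 19 fragments and a −log10 p of 14.2, and no IgG peak within 3 kb. It was looked at after the U2AF1 value was seen. Whether those fragments came from U2AF1 cannot be told apart from a peak list, since the handling of reads with several matches is not given in the sources used here.

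Among 66 other splicing genes, all had a peak and 59 had a strong one, with a median −log10 p of 23.4. The highest were SNRNP27, a further tri-snRNP protein, with 429 fragments, GEMIN7 of the SMN complex with 515, the cyclophilin PPIL1 with 428, PRPF18, a second-step factor, with 272 and SNW1 with 308. The lowest were PRPF39, RNPC3 and ZMAT5 with 5 fragments each, EIF4A3 of the exon junction complex with 7 and the SR protein SRSF10 with 7. By list, median −log10 p was 54.4 for the SMN complex, which assembles Sm rings, 25.7 for further spliceosome proteins, 11.4 for SR proteins, 7.20 for the minor U12 spliceosome and 5.84 for the exon junction complex. PRPF18, on chromosome 10, had 272 ZBTB11 fragments and an IgG peak of 7 fragments at a different site, which did not overlap the ZBTB11 peak.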

How the data were processed

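NCI-H1299 chromatin was profiled by ChIP-seq, and groups were taken from the sample titles (1 ZBTB11, 1 IgG and 1 Input library). Read pairs had been aligned to hg38 by the authors using BWA, and MACS had been run on each antibody by itself with a p-value limit of 0.05. The narrow peak layout is that of later MACS releases, so the release is not certain. The deposited fold enrichment is a ratio of summit to local background. Significance was deposited as −log10 values of the p-value and of the q-value. The authors' score column repeats the p-value and was not used.

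Peaks were joined to GENCODE release 44 starts (interval within 3 kb). Fragments were solved from fold enrichment and p-value under a Poisson background with a pseudocount of 1, and 100% of peaks could be solved to 0.001 in −log10 p, 96 ZBTB11 peaks with more than 1 solution. ZBTB11 and IgG fragments were compared after scaling by the genome-wide background of each library. Library totals are not in the peak lists, so depth is given only as background fragments. Motifs were searched in hg38 on both strands. Promoters ran from 250 bases before to 50 after the Ensembl canonical start. Copies of 31-mers were exact matches. Fragment recovery, motif search and joins were tested on simulated data. Python 3.11.15, pandas 2.3.3, scipy 1.17.1 and pysam 0.24.0 were used.

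Members, role groups and lists were chosen with earlier results of these data known. Named in detail were the 5 genes with the largest and the 5 with the smallest −log10 p, the extremes of each role group, all genes on chromosomes 1, 10 and 21, those without a peak or with q above 0.05, those next to the threshold, and the 5 highest and lowest other splicing genes. The counts of starts inside peaks, the promoter comparison, the near-copy and the protein-coding IgG ratios were added after the data were seen. With 1 library per group no test was run.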

Additional observations from a re-analysis of the deposited data

How the results depend on the processing

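No paired analysis was possible because there was 1 library per antibody, which also left no replicate to take out. Of the 48 genes with a strong peak, 20 remained without peaks near any other gene and, in an alternative chosen after seeing the data, 27 without peaks near another protein-coding gene. Shares of protein-coding genes were not counted for these settings. The AQR-associated median −log10 p went from 226 to 49.0 with the PRPF19-group genes joined. The 7 genes with an IgG peak became 1 at a q-value of 0.05 or less, 3 with an overlap of the ZBTB11 peak by at least 1 bp and 2 with at least 50% of the shorter peak. At that q-value the share was 11.1%, against 3.02% of protein-coding genes on the same chromosomes. The motif share of 31.5% was 14.8% within 25 bp of the summit, 48.1% within 100 bp, 81.5% for GGAA alone and 6.48% in the flanking windows. The other 25 of 35 alternatives moved their value by less than the limits set, 1.5 times for counts. Limits are set by low counts: genes with 8 fragments have intervals from 3.45 to 15.8, IgG was read on 9 genes only, and peak lists hold no values between peaks.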
